A study of Caenorhabditis elegans with 2 samples.

Results

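The genes described here carry the symbols of cytosolic ribosomal protein genes of the nematode Caenorhabditis elegans. The question was where CEH-9 ChIP-seq regions lay at their promoters. They were chosen by symbol, as protein-coding genes whose name starts with rpl- (large subunit) or rps- (small subunit) in the Ensembl annotation of genome build WBcel235, which left out the mitochondrial mrpl- and mrps- genes. This gave 78 genes, 47 of the large and 31 of the small subunit, among 19973 coding genes on the nuclear chromosomes. What each gene encodes was not checked beyond its symbol. CEH-9 is a homeodomain protein, and chromatin immunoprecipitation and sequencing (ChIP-seq) was done on whole L3 larvae, pooled male and female and of unknown age, of strain OP202 with the genotype unc-119(ed3) III; wgIs202. The strain stably expresses CEH-9 with a GFP-FLAG tag at its C-terminus, and both libraries carry the transgene and the unc-119 mutation. The 2 biological replicates, which the labels number 1 and 3, form a single group. One label describes both libraries as input, while the assay and antibody labels name CEH-9, and the samples were treated as ChIP. Whole larvae mix all tissues, so more bound cells and more binding per cell cannot be told apart.

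Ribosomal proteins join the ribosomal RNAs to form the large subunit, which makes the peptide bond, and the small subunit, which reads the messenger RNA. Their genes are short, are transcribed in nearly all cells, and are controlled together with cell growth. In C. elegans many of their transcripts receive a spliced leader, whose acceptor site is typically TTTCAG, and several of the genes carry snoRNA genes in their introns.

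Each list holds regions with a summit, the point of strongest signal, and a signal value given by the authors' peak caller. The value has no stated unit and ranks regions within a list. The promoter window of a gene reached 1000 bp before and 200 bp past each of its annotated transcript starts, and the gene was given the strongest region with its summit there. The pooled list held 10489 regions, and the lists of replicate 1 and replicate 3 held 30000 each. A q-value under 0.05 was reached by 28 regions of the pooled list, by 3048 in replicate 1 and by 24 in replicate 3, so most entries of each list did not pass that threshold. Read depth is unknown here. Regions on the mitochondrial chromosome numbered 30 in replicate 1 and 0 in the other lists, and they count in the ranks of replicate 1. Values printed for a region are the authors', and no test between samples exists with a single group.

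The sequences at the strongest regions are shown, for 5 of the genes with high pooled signal values, because they can be read for shared words. Each runs 75 bp to either side of the pooled summit, on the strand of the gene, in build ce11. They belong to rpl-20 (chrIV:4750001-4750151, minus strand), rpl-35 (chrIII:7854550-7854700, plus strand), rpl-12 (chrIV:13240654-13240804, minus strand), rps-9 (chrII:11126608-11126758, minus strand) and rpl-11.1 (chrV:3586113-3586263, minus strand). None of the 5 stretches touches an annotated exon, piRNA genes aside. Capitals mark the word GCGCTC on either strand, which was noticed after the sequences had been read. The homeodomain words TAATTA and TAATTG and the purine words GAGAAAGA and GAGAGAGA were looked for too, and none of them occurs in these 5 stretches.
rpl-20: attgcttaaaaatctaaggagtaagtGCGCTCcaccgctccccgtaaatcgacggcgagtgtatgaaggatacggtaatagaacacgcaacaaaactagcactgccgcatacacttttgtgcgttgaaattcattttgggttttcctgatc
rpl-35: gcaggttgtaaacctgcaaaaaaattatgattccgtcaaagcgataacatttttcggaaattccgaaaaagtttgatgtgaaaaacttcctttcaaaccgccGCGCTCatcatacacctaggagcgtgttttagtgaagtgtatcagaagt
rpl-12: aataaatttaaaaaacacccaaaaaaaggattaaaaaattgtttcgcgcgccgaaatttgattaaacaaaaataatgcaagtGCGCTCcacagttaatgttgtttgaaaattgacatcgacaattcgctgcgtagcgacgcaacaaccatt
rps-9: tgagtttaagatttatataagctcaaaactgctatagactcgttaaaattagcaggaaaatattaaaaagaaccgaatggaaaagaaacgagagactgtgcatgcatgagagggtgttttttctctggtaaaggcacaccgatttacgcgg
rpl-11.1: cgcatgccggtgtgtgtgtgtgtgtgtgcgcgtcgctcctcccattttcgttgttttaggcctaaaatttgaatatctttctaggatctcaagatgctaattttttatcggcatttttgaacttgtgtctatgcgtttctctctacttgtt
The stretches of rpl-20, rpl-35 and rpl-12 hold GCGCTC, and those of rps-9 and rpl-11.1 do not.

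In the pooled list, 20 of the 78 ribosomal protein genes (25.6%) had a region in the promoter window, against 15.3% of all coding genes. The share was 64.1% in replicate 1, where 50 genes had a region, against 39.6% of all coding genes. In replicate 3 it was 43.6%, or 34 genes, against 35.5% of all coding genes. The ribosomal share was thus above the coding share in all 3 lists, by the smallest margin in replicate 3. When replicate 1 was left out and replicate 3 was reduced to its 10489 strongest regions, 12 ribosomal protein genes (15.4%) had a region, against 14.0% of all coding genes. Without replicate 3, the same number of regions from replicate 1 gave 32 genes (41.0%), against 16.1%. At that number of regions, the excess was therefore large in replicate 1 and small in replicate 3.

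**Figure D1:**
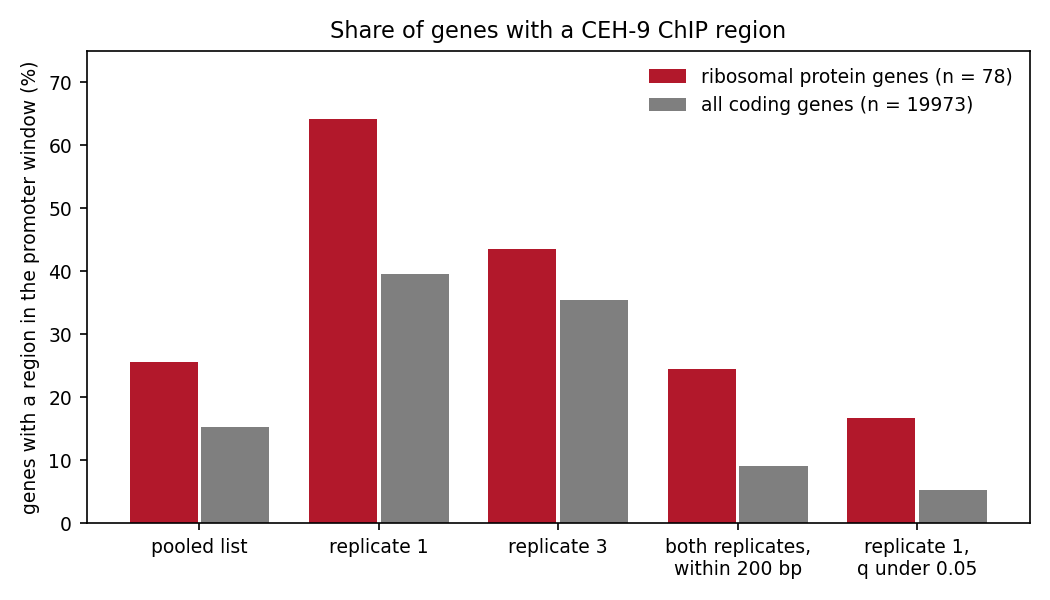
Percent of genes with a region in the promoter window (y axis), for the 78 ribosomal protein genes (red) beside all 19973 coding genes (grey), in each list and under stricter rules; bars have no error since each list gives 1 value. The red bar is the taller one in each pair, with 25.6% against 15.3% in the pooled list and 43.6% against 35.5% in replicate 3.

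No ribosomal protein gene had a region of the authors' reproducible set, whose 45 peaks lay in the windows of 0.0851% of all coding genes. None had a pooled region with a q-value under 0.05, against 0.0451% of all coding genes, and the smallest pooled q-value was 0.175, at rpl-20. In replicate 3, 0 members passed that threshold, against 0.03%, with a smallest q-value of 0.264 at rpl-35. In replicate 1, 13 of the 78 genes (16.7%) passed it, against 5.21% of all coding genes. These were rpl-20, rpl-12, rpl-24.2, rpl-3, rps-9, rps-12, rpl-4, rpl-11.2, rpl-32, rpl-11.1, rps-1, rpl-21 and rps-23. Their signal values in replicate 1 lay between 10.4 and 24.4. Of the 13, 10 had a pooled region and 5 had a replicate 3 region within 200 bp of a replicate 1 region in the window. The same counts among all coding genes that passed are not given here, so these are descriptions only.

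The strongest region at a ribosomal protein gene was that of rpl-20, a large-subunit gene (WBGene00004432, chromosome IV, 4749123 to 4749778). Its signal value was 28.9 in the pooled list (rank 72) and 24.4 in replicate 1 (rank 51), and replicate 3 had no region in its window. The pooled region ran from 4749918 to 4750233, with its summit 298 bp upstream of the start of rpl-20 and 164 bp from that of Y17G9B.5. The region was thus high in a single library and also lay in the window of a neighbouring gene.

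Next came rpl-35, whose protein sits at the exit of the peptide tunnel. It had 23.0 in the pooled list (rank 318), 6.96 in replicate 1 (rank 10035) and 14.0 in replicate 3 (rank 245). The summit lay 509 bp upstream of its start in intergenic sequence. This was the only ribosomal protein gene among the 1000 strongest regions of replicate 3, and replicate 1 was weak there, the reverse of rpl-20.

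For rpl-12, whose protein lies at the base of the stalk that binds translation factors, the pooled value was 22.9 (rank 323) with the summit 78 bp upstream. Replicate 1 had 21.9 (rank 68) with its summit 70 bp upstream. Replicate 3 had 9.14 (rank 3874), but its summit lay 865 bp upstream, so the libraries marked different places in the same window.

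The small-subunit gene rps-19, whose protein is in the head of that subunit, had 22.6 in the pooled list (rank 350), 9.06 in replicate 1 and 9.15 in replicate 3. The replicate summits were 19 bp apart, and the values were close to each other. At rpl-24.2 the pooled value was 21.5 (rank 474), with 17.0 in replicate 1 and 5.72 in replicate 3 (rank 18628), and the summit lay in an intron of C03D6.1. At rps-9, whose protein lines the entry of the messenger RNA channel, it was 19.8 (rank 799), with 14.0 in replicate 1 and 5.52 in replicate 3. The replicate 3 summit of rps-9 was 611 bp upstream and that of replicate 1 was 331 bp upstream. These 6 genes were the members among the 1000 strongest pooled regions, or 7.69% of the 78, against 1.8% of all coding genes.

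Further down, rps-12 had 19.1 in the pooled list (rank 1016) and 13.7 in replicate 1, with no region in replicate 3. The gene rpl-11.1, whose protein belongs to the central protuberance of the large subunit, had 18.5 pooled (rank 1220), 10.5 in replicate 1 and 8.39 in replicate 3, with replicate summits 11 bp apart. This was the closest pair of replicate summits among the members. For rpl-3, whose protein reaches toward the peptidyl transferase centre, the values were 17.8 pooled (rank 1542) and 14.9 in replicate 1, with no region in replicate 3. For rpl-27 they were 17.4 pooled (rank 1797), 9.75 in replicate 1 and 4.58 in replicate 3. Its summit lay in its own coding exon, 117 bp downstream of the start, and it was the only pooled summit of a member downstream of the start.

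The weaker pooled regions were at rpl-2 (signal value 16.7, rank 2237), rps-1 (16.4, rank 2529), rps-23 (14.5, rank 4642), rpl-32 (14.2, rank 5135) and rpl-23 (13.9, rank 5624). The proteins of rpl-2 and rps-23 lie at the peptidyl transferase centre and the decoding centre. The lowest signal values were at rps-17 (13.2, rank 7029), rps-20 (13.1, rank 7399), rpl-15 (12.5, rank 8614), rpl-43 (12.5, rank 8699) and rps-3 (12.4, rank 8924). Only rps-3, whose protein guards the messenger RNA entry, had a pooled region and no region in either replicate. The median over the 20 genes was 17.1, beside 14.3 over the 3065 coding genes with a pooled region. Large-subunit genes had a pooled region in 12 of 47 cases (25.5%, median signal value 17.6) and small-subunit genes in 8 of 31 (25.8%, median 15.4). In the pooled list the subunits thus had nearly the same share. The large subunit had the higher share in replicate 1 (68.1%, beside 58.1%) and the lower one in replicate 3 (40.4%, beside 48.4%).

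**Figure D2:**
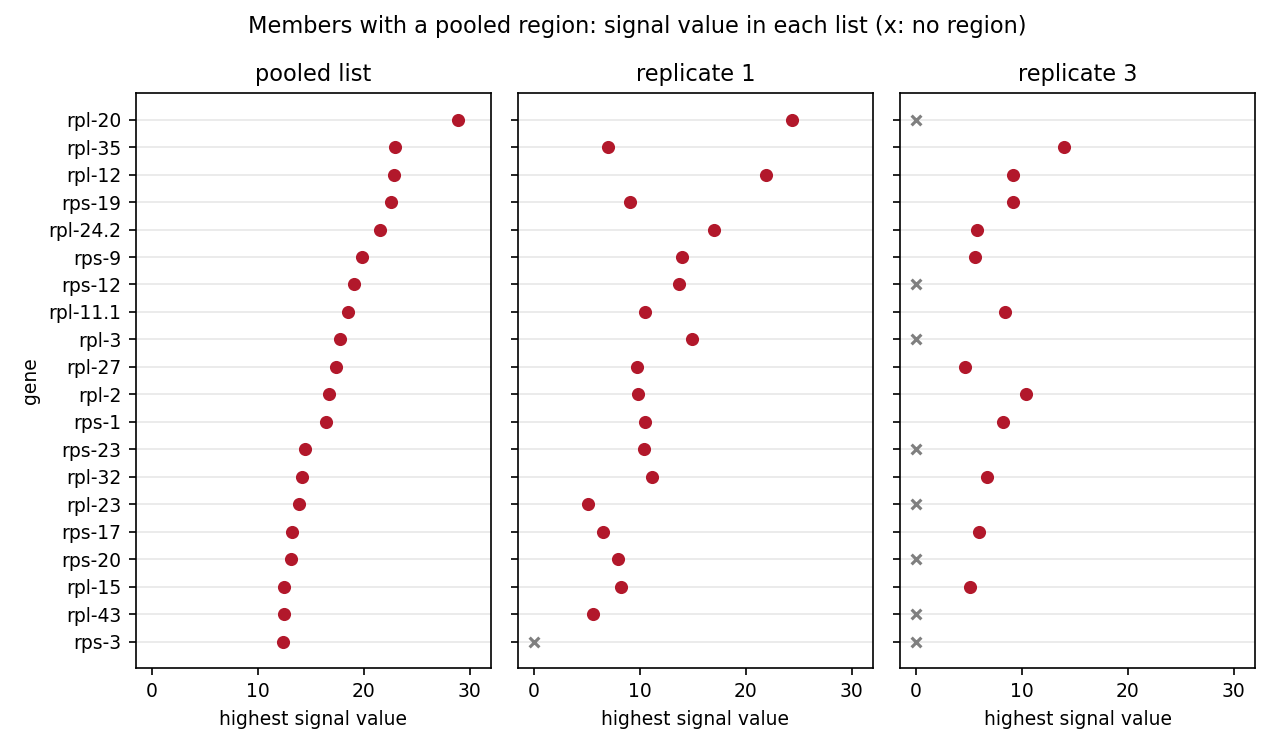
Highest signal value (x axis, no stated unit) in the promoter window of each of the 20 ribosomal protein genes with a pooled region (rows, in pooled order), in the pooled list, replicate 1 and replicate 3; a cross at 0 marks a gene with no region in that list. In replicate 1, 19 of the 20 have a region (95%, against 79.8% of coding genes with a pooled region), and in replicate 3, 12 do (60%, against 73.3%), with rpl-20 at 24.4 in replicate 1 and absent in replicate 3.

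Counts among the stronger regions differed between the lists. Regions at or above the list's median signal value were found at 14 members in the pooled list (17.9%, against 8.21% of all coding genes), 35 in replicate 1 (44.9%, against 22.1%) and 19 in replicate 3 (24.4%, against 19.2%). Among the 3000 strongest pooled regions were those of 12 ribosomal protein genes (15.4%), against 4.93% of all coding genes. Among the 1000 strongest of replicate 1 were 7 of them (8.97%), against 1.91%, and among its 10000 strongest 30 (38.5%), against 15.5%. In replicate 3 the 300 strongest held 1 (1.28%), against 0.376%. Its 1000 strongest also held 1 (1.28%), against 1.4%, and its 3000 strongest 3 (3.85%), against 4.21%. Its 10000 strongest held 12 (15.4%), against 13.3%. The median signal value of members with a region was 7.7 in replicate 1, beside 6.24 for all coding genes with one. In replicate 3 it was 6.41, beside 6.39. The median of the members was thus above that of the coding genes in replicate 1 and at its level in replicate 3, where the members' share among all 30000 regions was still the higher one.

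**Figure D3:**
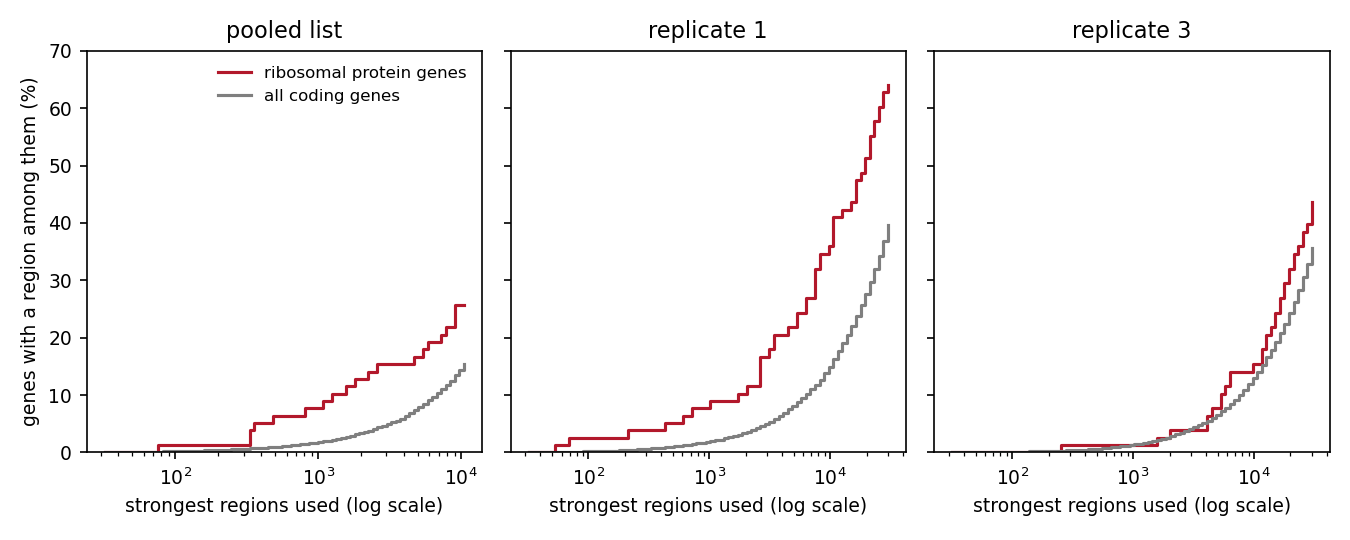
Percent of genes with a region among the strongest N of each list (y axis) against N (x axis, log scale), for the 78 ribosomal protein genes (red) and all coding genes (grey). In the pooled list and replicate 1 the red line runs above the grey one over most of the range. At N = 1000 in replicate 1 they stand at 8.97% against 1.91%. In replicate 3 the lines cross more than once. There the red line is the higher one at N = 300, with 1.28% (1 gene) against 0.376%. It is the lower one at N = 1000, with 1.28% against 1.4%, and at N = 3000, with 3.85% against 4.21%. At N = 30000 it is the higher one, with 43.6% against 35.5%.

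Regions of both replicates within 200 bp of each other were found in the windows of 19 ribosomal protein genes (24.4%), against 9.01% of all coding genes. Per the deposited file descriptions, each replicate list was made from its own alignment and 1 further input file that both share, taken here to be the control. Whether that shared file places regions together was not tested. Of the 19 genes, 10 also had a pooled region: rpl-35, rps-19, rpl-24.2, rpl-11.1, rpl-27, rpl-2, rps-1, rpl-32, rps-17 and rpl-15. The other 9 were rpl-4, rpl-36, rps-14, rpl-22, rps-5, rpl-36.A, rps-26, rpl-41.2 and rps-15. Among these, rpl-4 was the strongest, with matched regions of 12.9 in replicate 1 (rank 935) and 9.54 in replicate 3 (rank 3087), 189 bp apart. At rpl-2 the values were 9.79 in replicate 1 and 10.4 in replicate 3, 26 bp apart. At rps-26 they were 4.73 and 5.16 in replicates 1 and 3, near the lower limit of both lists. The matched signal value was the higher one in replicate 1 at 11 of the 19 genes and in replicate 3 at 8. For all matched coding genes, this split and the share with a pooled region are not given here. Across the 19 genes Spearman's rho of the signal values was 0.335, beside 0.118 across the 1799 coding genes matched in the same way. These points share 2 libraries and a control, and rpl-36 and rps-14 share 1 region in each list.

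Of the 58 genes without a pooled region, 31 had a region in replicate 1 (53.4%, against 32.3% of coding genes without a pooled region) and 22 in replicate 3 (37.9%, against 28.7%). Their strongest regions in replicate 1 had signal values from 4.18 to 12.9 (median 6.9), with rpl-4, rpl-11.2 (11.5), rpl-21 (10.5) and rpl-29 (9.92) at the top. In replicate 3 they ran from 4.51 to 10.9 (median 6.35). By number of lists, 12 members had a region in all 3 (15.4%, against 8.67% of all coding genes), 22 in 2 (28.2%, against 15.1%) and 24 in 1 (30.8%, against 34.2%). Members were thus above the coding share for 3 and for 2 lists and below it for 1. Of the 24, 16 had it in replicate 1, 7 in replicate 3 and 1 in the pooled list. A region in replicate 1 without one in replicate 3 occurred at 23 genes (29.5%, against 22% of all coding genes), and the opposite at 7 (8.97%, against 17.9%). The remaining 20 genes (25.6%) had none in any list, against 42% of all coding genes. They were rpl-5, rpl-7, rpl-7A, rpl-13, rpl-17, rpl-18, rpl-25.1, rpl-25.2, rpl-30, rpl-33, rpl-37, rpl-42, rps-0, rps-4, rps-6, rps-7, rps-11, rps-22, rps-27 and rps-29. At the edge of the window, the pooled summit of rpl-2 lay 951 bp upstream (inside), and those nearest to rpl-10 and rps-22 lay 1077 bp upstream (signal value 13.5) and 228 bp downstream (14.0), both outside.

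Genes with the same number in their symbol differed in their regions in some pairs and not in others. Whereas rpl-11.1 on chromosome V had regions in all 3 lists, rpl-11.2 on X had one only in replicate 1, 348 bp upstream. Likewise rpl-24.2 was in all 3 lists and rpl-24.1 only in replicate 3, with a signal value of 6.91. The pair rpl-25.1 and rpl-25.2 had none, and the adjacent pair rpl-41.1 and rpl-41.2 on chromosome I had values of at most 5.86, with no pooled region. A shared number was not taken to mean that the genes of a pair are copies. Whether reads could be told apart between them was not tested.

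The strongest regions of members lay mostly near the start in the pooled list and replicate 1, and farther out in replicate 3. In the pooled list the strongest summit lay 500 to 1 bp upstream of the start in 16 of the 20 ribosomal protein genes (80%), beside 45.8% of coding genes with a region. In replicate 1 the stretch from 500 to 1 bp upstream held 36 of 50 strongest summits (72%), beside 45.2%, and the first 200 bp downstream held 1 (2%), beside 17.7%. In replicate 3 the same 2 stretches held 14 of 34 (41.2%, beside 41.8%) and 4 (11.8%, beside 21.2%). The most filled stretch for members in replicate 3 lay farther out, beyond 500 and up to 1000 bp upstream, at 16 of 34 (47.1%, beside 37%), where the pooled list had 3 of 20 (15%, beside 34.1%) and replicate 1 had 13 of 50 (26%, beside 37%). Taken over all 78 genes and all summits, those 500 to 1 bp upstream of the most upstream start were found at 38 genes in replicate 1 (48.7%, against 17.2% of all coding genes). In replicate 3 they were found at 18 genes (23.1%, against 13.7%), as many as beyond 500 and up to 1000 bp upstream (23.1%, against 13.2%), and in the pooled list at 16 (20.5%, against 5.95%). Farther out, beyond 1000 bp and up to 2000 bp upstream, the shares were 28.2% against 28.3% in replicate 1, 37.2% against 27% in replicate 3 and 12.8% against 10.4% in the pooled list. Of these upstream stretches, the first 500 bp thus held most of the excess over the coding genes in replicate 1 and the pooled list. Downstream of the most upstream start, pooled shares were also higher, with 10.3% against 5.95% in the first 500 bp. From 500 bp to under 1000 bp they were 7.69% against 5.14%, and from there to under 2000 bp 15.4% against 10.3%. Replicate 1 had 16.7% against 15.8%, 19.2% against 14.4% and 34.6% against 27.6% in these downstream stretches, in the same order. Replicate 3 had 14.1% against 16.3%, 25.6% against 15.2% and 24.4% against 28.5%, so members were higher there only from 500 bp to under 1000 bp. In the pooled list and replicate 1 the excess was thus not confined to the upstream side.

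**Figure D4:**
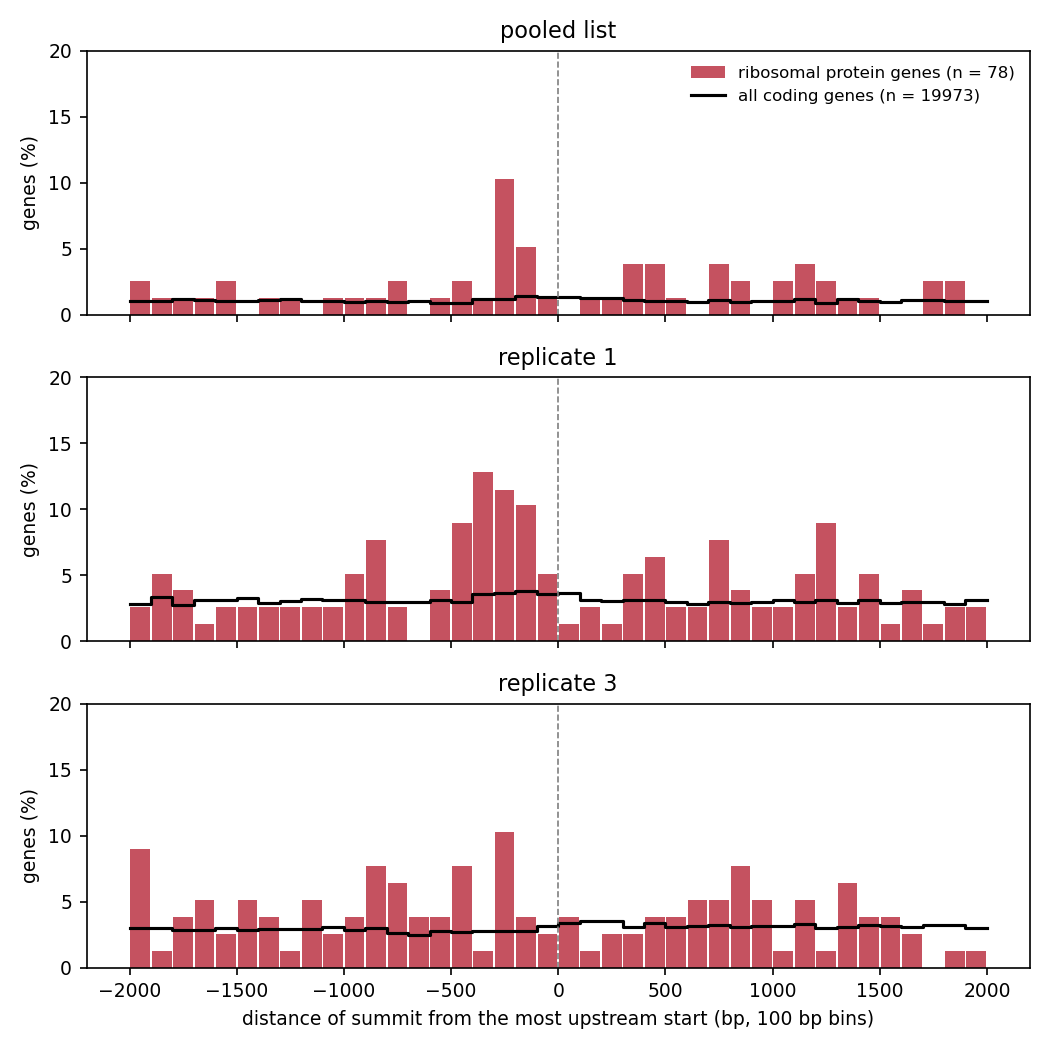
Percent of genes with a summit in each 100 bp bin (y axis) by distance from the most upstream annotated start (x axis, bp, negative upstream), for the 78 ribosomal protein genes (red bars) and all coding genes (black line), in each list. In the pooled list and replicate 1 the tallest bars lie within 500 bp upstream of the start and in replicate 3 tall bars also stand farther out, while the black line is nearly flat; bars rest on few genes each.

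Of the pooled summits of members, 16 of 20 were in intergenic sequence (80%, against 44% of coding genes with a region), while 2 lay in coding exons (rpl-27, and rpl-2 within calf-1), 1 in an intron (rpl-24.2) and 1 in an exon outside coding sequence (rps-1, within F56F3.10). In replicate 1, 35 of 50 were intergenic (70%, against 48%) and 9 in coding exons (18%, against 21.9%). In replicate 3 the split was different, with 16 of 34 intergenic (47.1%, against 41%) and 15 in coding exons (44.1%, against 28.4%). The nearest coding start to the pooled summit was the gene's own in 14 of 20 (70%, against 83.6%). At rpl-20, rps-19, rps-9, rpl-2, rps-23 and rpl-43 it was that of a neighbour: Y17G9B.5, hsr-9, lsm-1, calf-1, dpm-3 and Y48B6A.1 in this order. In 13 of the 20 the region also lay in the window of another coding gene (693 of 3065 coding genes with a region, or 22.6%). This comparison of neighbours was added after the values were seen. The nearest upstream coding gene was on the opposite strand and within 1000 bp at 49 of 78 (62.8%), against 21.3% of coding genes. Coding genes with such a neighbour had a region in 16.4% of cases in the pooled list and 41.5% in replicate 1, near the shares of all coding genes. Members with such a neighbour had one in 28.6% and 63.3%, and members whose upstream gene was on the same strand in 20.8% and 62.5%. The member pairs rpl-24.1 and rps-10, rpl-36 and rps-14, and rpl-39 and rps-30 lie head to head with overlapping windows. Each pair shared 1 region in at least 1 replicate, so their values are not independent.

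Members had a mean window of 1261 bp, against 1459 bp for all coding genes, and a mean of 1.32 annotated starts, against 1.49. Per 100 kb of window, members had 22.4 pairs of gene and region in the pooled list, against 11.4 for all coding genes. In replicate 1 they had 58.0, against 33.1, and in replicate 3 they had 47.8, against 29.9. Per length of window, the members were thus above all coding genes in each list.

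Words in the sequence were counted on both strands, and a match is a description of letters only. Within 100 bp of the strongest pooled summit, the homeodomain words TAATTA or TAATTG occurred at 3 of 20 ribosomal protein genes (15%; rpl-27, rpl-32 and rpl-43), against 18.9% of coding genes with a region. In replicate 1 they occurred at 6 of 50 (12%), against 23%, and in replicate 3 at 32.4%, against 20.9%. The words GAGAAAGA or GAGAGAGA occurred at 0 of the 20, against 6.69%, at 1 of 50 in replicate 1 (2%), against 4.66%, and at 0 of 34 in replicate 3, against 4.65%. The GATA word TGATAA occurred at 1 of 20 (rpl-24.2, 5%), against 16.6%, and in replicate 1 at 6 of 50 (12%), against 19%. In replicate 3 it was the other way round, at 7 of 34 (20.6%), against 16.6%. The acceptor word TTTCAG occurred at 8 of 20 (40%), against 31.7%, in replicate 1 at 26 of 50 (52%), against 34.3%, and in replicate 3 at 14 of 34 (41.2%), against 35.3%. It was also common in the promoters themselves, taken from 250 bp before to 50 bp after the most upstream start, at 54 of 78 (69.2%), against 51.7% of all coding genes. The T run TTTTTTTT was found in 14 of these promoters (17.9%), against 32.5%.

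The word GCGCTC, chosen after the sequences had been read, occurred at 6 of the 20 genes (30%), among them rpl-20, rpl-35, rpl-12, rpl-32 and rpl-43. It occurred at 5.45% of coding genes with a pooled region and within 100 bp of 3.96% of all pooled summits. The longer form TGCGCTCCA, which contains it, was also chosen after the sequences had been read. It was at 2 of the 20 (10%), against 0.489%. These were rpl-20 and rpl-12, both among the sequences shown, so the choice of the word fixed their count. In replicate 1 GCGCTC was at 7 of 50 (14%), against 4.6%, and in replicate 3 at 2 of 34 (5.88%), against 4.14%. In the promoters of all 78 genes, GCGCTC was found in 5 (6.41%), against 5.45% of coding genes. The shares differed at the pooled and replicate 1 regions. The counts in each list include sequences the word was picked from, so no conclusion is drawn. In the promoters the shares lay close together, and no test was made on a word picked from these sequences.

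Median GC content within 100 bp of the strongest pooled summit was 40% at the members and 39.3% at all coding genes with a region. In the promoters it was 33% at the members and 34.3% at all coding genes.

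The rest of the translation machinery was read in the same way. Of the 6 other genes of the cytosolic ribosome, ubl-1 encodes a ubiquitin-like domain fused to a small-subunit protein. This gene had a region of rank 753 in the pooled list, 4777 in replicate 1 and 1359 in replicate 3. Its summits lay 128 to 180 bp upstream. The stalk gene rla-0 had a pooled region (13.4) and one in replicate 3 (7.45), rla-1 had one in replicate 1 (6.97), and ubq-2 had one in replicate 3 (6.35). No region was found at rla-2 or rack-1. Mitochondrial ribosomal protein genes had a pooled region at 12 of 70 (17.1%), a replicate 1 region at 32.9% and a replicate 3 region at 40%. Translation factor genes had one at 9 of 42 (21.4%), with 59.5% in replicate 1 and 57.1% in replicate 3. Ribosome assembly and RNA polymerase I genes had one at 7 of 20 (35%), with 50% and 55%. The same shares over all coding genes were 15.3%, 39.6% and 35.5%. Regions in both replicates within 200 bp, found at 24.4% of the 78 ribosomal protein genes, were found at 12.9% of the mitochondrial list, 16.7% of the translation factors and 25% of the assembly list. The mitochondrial list was thus nearest to the background in the pooled list, and no list was compared with another by a test.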

How the data were processed

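CEH-9 ChIP-seq was measured in 2 biological replicates of L3 larvae. Per the deposited file descriptions, the authors made lists of peaks and background from each replicate alignment, and from both pooled, with 1 further input file shared by all 3, taken here to be the control, and derived the reproducible set from these lists with the irreproducible discovery rate (IDR). No source used here names the aligner or caller, how values were scaled, or the threshold for IDR. The deposited signal value (column 7) has no stated unit. The authors deposited q-values as −log10 (column 9), going by the narrowPeak layout named in the file descriptions. Ranks count ties at the lowest number.

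The ce11 lists and Ensembl release 115 annotation (WBcel235) were used, and every region ended within its chromosome. Sequence came from the RefSeq copy of WBcel235. The ce10 lists were not used. Coordinates are 1-based. Members, lists and windows were chosen with earlier results of these data known. Named were members with a pooled region, those matched between replicates, those without any region, same-numbered pairs and the other ribosome genes. Of the context genes fixed by symbol, 1 was not in the annotation under that name. The 12 coding genes off the nuclear chromosomes were left out. Shares are descriptions over genes, which are not replicates, so no test was made and no p-value is given. A word of 10 letters and a narrower stretch upstream of the start, also picked after values were seen, are not reported, and 1 sequence is not reported here. The assignment of summits to windows was tested on simulated regions. Window size, starts, region strength, matching distance, members and each replicate were varied. Python 3.11.15 with pandas 2.3.3, numpy 2.4.6 and matplotlib 3.10.9 was used.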

Additional observations from a re-analysis of the deposited data

How the results depend on the processing

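Of 33 alternative values, 23 stayed within 1.5 times the count, or within the spread of the replicate medians (SD 0.911) for the signal value. That spread comes from the replicate lists, where the members' medians were 7.7 and 6.41. It does not measure the spread of the pooled median of 17.1. In all 26 alternatives that left at least 1 member, the members' share was above that of all coding genes. Where a q-value under 0.05 left no member, the coding shares were 0.0451% in the pooled list and 0.03% in replicate 3. Cuts at 1000 and 3000 regions were not among these alternatives. In replicate 3 the members were below the coding genes at both, with 1.28% (1 gene) against 1.4% and 3.85% (3 genes) against 4.21%. For the pooled count of 20, leaving out 1 replicate gave 12 (without replicate 1) to 32 (without replicate 3). Requiring a q-value under 0.05 left 0 members in the pooled list, 13 in replicate 1 (of 50) and 0 in replicate 3. Regions at or above the median signal value left 19 members in replicate 3 (of 34, with 24.4% against 19.2% of coding genes) and, required in both replicates, 9 matched members (of 19). Matching within 100 bp gave 12 matched members. The median pooled signal value of 17.1 became 15.4 when any base of a region counted, beside 14.3 for coding genes. Among regions at or above the list's median it became 18.8, beside 16.5 for coding genes. These settings add or remove weak regions. With a q-value under 0.05 no member was left for the median pooled signal value. The most upstream start as the only start, chosen after seeing the data, gave 20, 50, 33 and 19 genes for the pooled list, replicate 1, replicate 3 and both. The canonical transcript start was not run, because the annotation used marks none. No paired analysis was possible because there is a single group. Depth is unknown here, so a gene without a region is not shown to be unbound.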

Other observations

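Of the 78 ribosomal protein genes, 13 carry at least 1 annotated snoRNA gene within their bounds, among them rpl-2, rpl-7A, rpl-15, rps-12 and rps-23. snoRNAs guide the modification of ribosomal RNA. A pooled region lay in the promoter window of 4 of these 13 (30.8%) and of 16 of the 65 others (24.6%). In replicate 1 the counts were 7 of 13 (53.8%) and 43 of 65 (66.2%), and in replicate 3 they were 5 (38.5%) and 29 (44.6%). The order of the 2 groups changed with the list. No member had a tRNA gene in its window.

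By chromosome, members were on I (23 genes), III (18), IV (17), II (10), V (8) and X (2). The share with a replicate 1 region was 56.5% on I, 60% on II, 66.7% on III, 64.7% on IV and 87.5% on V, against 40.3%, 38.6%, 40.5%, 39.4% and 37.8% of the coding genes of those chromosomes in that order. In replicate 3 the shares were 56.5%, 50%, 27.8%, 41.2% and 50%, against 37.1%, 36.4%, 38.4%, 33.3% and 33.3%. Chromosome III was the only autosome on which members were below the coding genes in replicate 3. Both X genes, rpl-11.2 and rpl-25.1, lacked a pooled region, as did most coding genes on X, of which 18.4% had one.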
